A study of Mus musculus with 13 samples.

Results

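Kinesins are motor proteins that walk along microtubules, and the superfamily divides by task. The 39 kinesin genes described here were all those measured whose symbol was Kif followed by a number and an optional letter, together with Kifc2 and Kifc3, out of 19938 genes on the arrays. Each was read from a probe set that carried a single gene symbol, and the brightest probe set was kept where a gene had several. By the roles assigned here 11 were mitotic kinesins, 15 were transport kinesins and 13 had other or unclear roles (microtubule dynamics, cilia, signalling). The last list holds Kif2a and Kif2b, relatives of the mitotic Kif2c that could also be counted as mitotic. Roles were assigned with earlier results of these data known, so the contrast between lists depends on that sorting. The mitotic Kifc1 had only a probe set shared with another gene and was not analysed here. A filter on dim genes left 31 of the 39 kinesins in the tests: 9 mitotic, 13 transport and 9 other. The 8 below it were the mitotic Kif2c and Kif22, the transport Kif17 and Kif3c, and Kif2b, Kif21b, Kif24 and Kif27, and they are described from the fit over all 19938 genes.

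The series profiled liver from 13 mice on 13 arrays, in 5 groups defined by the retinoblastoma gene Rb1 and by diethylnitrosamine (DEN), a carcinogen that liver cells activate into a DNA-damaging agent. The mice were 14 days old and received 1 intraperitoneal injection of DEN at 20 mg/kg, and treated livers were taken after 24 hours. Wild-type livers carried floxed Rb1 alleles without Cre, either untreated (n = 2; the series' design text describes these littermates as given saline) or DEN-treated (n = 2). The other groups all received DEN: a heterozygous group with 1 functional and 1 floxed allele plus Cre (n = 2, although 1 label field gives its genotype as LOH), an RB-N750F mutant group (n = 5) and a group labelled as RB knockout, floxed with Cre (n = 2). Cre stood under the albumin promoter, whose activity in liver is that of hepatocytes, so other liver cells in the Cre-bearing mice would keep their floxed alleles. The labels do not state the second Rb1 allele or the Cre status of the N750F mice. There was no untreated group of any mutant genotype, so what DEN did in the mutants cannot be told apart from the genotype. Nothing in the labels says whether arrays of a group came from different litters, so the p-values here weigh differences against array-to-array spread within a group, part of which may be technical.

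Values are log2 of quantile-normalized probe-set intensity plus 16; differences between groups are on that scale, which understates the change of dim genes. Levels were compared within a gene, since probe sets differ in brightness. The hepatocyte marker mean lay between 11.27 and 11.75 in every array. Array 2 of the knockout-labelled group held skeletal muscle transcripts (fast troponin T gene Tnnt3 at 11.96, against 4.49 to 6.18 in the other 12 arrays), and its mitotic kinesins stood apart from those of array 1, as described further on. The Rb1 probe set read 7.92 and 6.57 in the knockout-labelled arrays and 8.04 and 8.01 in DEN-treated wild-type livers; where its probes lie relative to the floxed exon is not known here, so it does not check the labels. Y-linked transcripts placed both DEN-treated wild-type livers as female, both heterozygous and both knockout-labelled livers as male, and 1 male with 4 females in the N750F group. They placed untreated array 1 as male and untreated array 2 as female, so sex was not balanced in the comparisons with untreated livers either. The arrays were made in 2 runs, named by the submitters' raw array names: run 1 held 9 arrays and run 2 held 4 (N750F 4 and 5, heterozygous 4, DEN-treated wild-type 4). The run was a term of the fit.

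In dividing cells, mitotic kinesins push the spindle poles apart, move and align chromosomes, and build the midzone where the cell is cut. Their genes are switched on in the G2 and M phases and are kept low in resting cells, in part through a promoter element named CHR (cell cycle genes homology region), often close to a CCAAT box, and other cell cycle genes use sites for E2F factors, which RB restrains. Transport kinesins carry vesicles, mitochondria and other cargo in resting and dividing cells alike. The liver of a 14-day-old mouse is still growing, and its hepatocytes still divide.

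Promoters of the kinesins were searched for these elements, since the mitotic members moved together in the comparisons that follow. RefSeq promoter entries (GRCm38.p6, 250 bases before to 50 after the annotated start) were matched for 10 of 11 mitotic, 10 of 15 transport and 11 of 13 other kinesins. Both strands were searched. A kinesin with several entries was counted as matched if any of them held the element, while the shares of all promoters count single entries. CHR was spelled TTTGAA in its usual form with TTCGAA as the other form. The CCAAT box was spelled as named. E2F sites were spelled with TTCCCGC first, TTCGCGC next, TTGCCGC after it, with TTGGCGC last, whose letters can overlap those of a CCAAT box. A CHR match was present for 9 of the 10 mitotic kinesins (all but Kif18a), for 1 of 10 transport kinesins (Kif1a) and for 3 of 11 others (Kif24, Kif26b, Kif27). It was present in 19.2% of all 32851 promoter entries and in 17.6% of those of protein-coding genes. CCAAT was present in 6 of 10 mitotic, 3 of 10 transport and 5 of 11 other promoters (37.4% of all), and both elements in 6, 0 and 3 (7.52% of all). A CHR match within 60 bases before to 20 after the start was found in 6 mitotic, 1 transport and 2 other promoters (4.48% of all). E2F letters were found in 2 mitotic (Kif15, Kif18a), 1 transport and 2 other promoters (9.57% of all, 12.1% of those of protein-coding genes). A match describes the letters and is no evidence of binding.

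The windows below run from 120 bases before to 30 after the start, 5′ to 3′ on the gene's strand, with matches in capitals. Kif11, Kif18b and Kif23 are shown because a CCAAT box (which reads ATTGG from the other strand) stands near the start in close order with CHR (which reads TTCAAA from the other strand), Kif15 because an E2F match adjoins CHR, Kif20b because it holds a tandem CHR and no CCAAT, and the transport kinesin Kif3b for contrast, with CCAAT alone.
Kif11: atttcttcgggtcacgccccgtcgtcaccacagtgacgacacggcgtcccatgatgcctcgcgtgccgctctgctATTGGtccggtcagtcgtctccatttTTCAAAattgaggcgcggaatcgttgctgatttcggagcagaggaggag
Kif18b: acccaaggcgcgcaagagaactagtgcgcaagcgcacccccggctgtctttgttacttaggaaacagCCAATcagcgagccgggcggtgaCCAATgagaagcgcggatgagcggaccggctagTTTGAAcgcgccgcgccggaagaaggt
Kif23: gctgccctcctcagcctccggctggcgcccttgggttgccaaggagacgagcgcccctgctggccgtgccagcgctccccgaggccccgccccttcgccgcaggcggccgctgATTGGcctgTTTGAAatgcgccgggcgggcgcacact
Kif15: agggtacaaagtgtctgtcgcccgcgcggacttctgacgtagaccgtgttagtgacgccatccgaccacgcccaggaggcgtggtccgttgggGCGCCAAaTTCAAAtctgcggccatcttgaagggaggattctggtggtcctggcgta
Kif20b: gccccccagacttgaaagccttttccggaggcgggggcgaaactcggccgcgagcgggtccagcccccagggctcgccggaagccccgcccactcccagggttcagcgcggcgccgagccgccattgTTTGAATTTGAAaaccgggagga
Kif3b: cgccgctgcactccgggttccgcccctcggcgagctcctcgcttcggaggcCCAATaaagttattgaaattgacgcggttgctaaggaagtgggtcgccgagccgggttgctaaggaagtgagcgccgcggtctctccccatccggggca
Counting the first transcribed base as 1 and the base before it as -1, CCAAT and CHR began at -45 and -19 in Kif11 and at -7 and 3 in Kif23. In Kif18b a pair of CCAAT matches began at -53 and -30 and CHR at 4. The tandem CHR of Kif20b began at 8 and 14. The windows lie at chr19:37376262-37376411 (Kif11, plus strand), chr11:102925095-102925244 (Kif18b, minus strand), chr9:61946770-61946919 (Kif23, minus strand), chr9:122950961-122951110 (Kif15, plus strand), chr19:34922238-34922387 (Kif20b, plus strand) and chr2:153291296-153291445 (Kif3b, plus strand).

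The mean level of the 9 tested mitotic kinesins ordered the groups. It was 5.67 ± 0.10 (SD, n = 2) in heterozygous livers with DEN, 6.08 ± 0.01 (SD, n = 2) in wild-type livers with DEN, 6.94 ± 0.23 (SD, n = 2) in untreated wild-type livers and 7.97 ± 0.13 (SD, n = 5) in N750F livers with DEN. The knockout-labelled pair averaged 7.59 ± 1.03 (SD, n = 2), with 8.32 in array 1 and 6.86 in array 2, so this group spanned the levels from untreated wild type to above N750F. The other 4 groups did not overlap with each other: every N750F array (7.83 to 8.17) lay above both untreated arrays (7.10 and 6.77), which lay above both DEN-treated wild-type arrays (6.07 and 6.08), which lay above both heterozygous arrays (5.74 and 5.60). Taken gene by gene, these separations held, in that order, for 8, 7 and 5 of the 9 mitotic kinesins. Among all genes tested they held for 10.9%, 23.5% and 13.6%. The 13 tested transport kinesins averaged 7.41 to 7.65 in all 13 arrays, and the 9 other kinesins 7.24 to 7.43. In whole-tissue RNA, fewer cells of a type and less RNA per cell cannot be told apart, so these levels do not separate a change in the share of dividing cells from one in each cell.

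**Figure D1:**
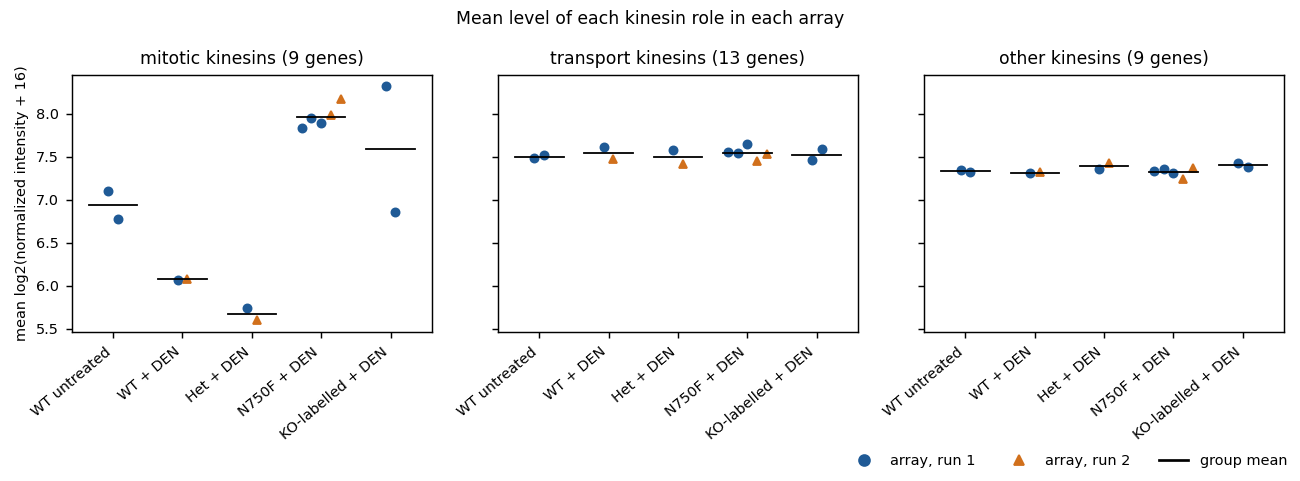
Mean log2(normalized intensity + 16) of the 9 tested mitotic, 13 transport and 9 other kinesins in each of the 13 arrays, by group; circles are run 1, triangles run 2 and lines group means. The mitotic mean runs from 5.60 to 8.32 over the arrays, while the transport mean stays between 7.41 and 7.65.

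Under DEN, N750F livers had more mitotic kinesin RNA than wild-type livers. In the fit with no filter 7 of all 11 mitotic kinesins rose (limma, adjusted p at or below 0.05), against 1% of 19938 genes called in either direction. With the filter 7 of the 9 tested rose, against 1.13% of the 14953 genes tested that rose and 1.42% called in either direction. The filter was on the mean over all arrays, and Kif18b (mean 5.97, filter 5.94) had group means above it only in the N750F and knockout-labelled livers. Kif14 and Kif18a had group means above it only in untreated, N750F and knockout-labelled livers. Kif11, Kif15 and Kif20a had group means above it in every group but the heterozygous one. The median difference of the 9 was 1.90, or 3.74-fold, and that of all genes tested was -0.01. No transport kinesin of 13 and no other kinesin of 9 passed, with medians of -0.08 and -0.03. All 5 N750F arrays lay above both wild-type arrays for 10 of the 11 mitotic kinesins (Kif22 overlapped) and for 1 of 15 transport kinesins, against 6.16% of all genes.

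Against heterozygous livers under DEN the same test called all 9 tested mitotic kinesins higher in N750F, where 1.3% of the genes tested rose and 1.64% were called. With no filter 10 of 11 mitotic members rose (1.29% of all genes called), Kif22 being the exception at 1.16 ± 0.31 (SE, adjusted p = 0.101). The median of the 9 was 2.14, or 4.41-fold, beside -0.01 for all genes tested. No transport or other kinesin passed among those tested; with no filter Kif24, a centriolar kinesin that restrains cilium formation, also rose. All 5 N750F arrays lay above both heterozygous arrays for all 11 mitotic kinesins, against 6.22% of all genes. Both comparisons use the same 5 N750F arrays, so their values are set side by side and do not count as separate evidence.

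**Figure D2:**
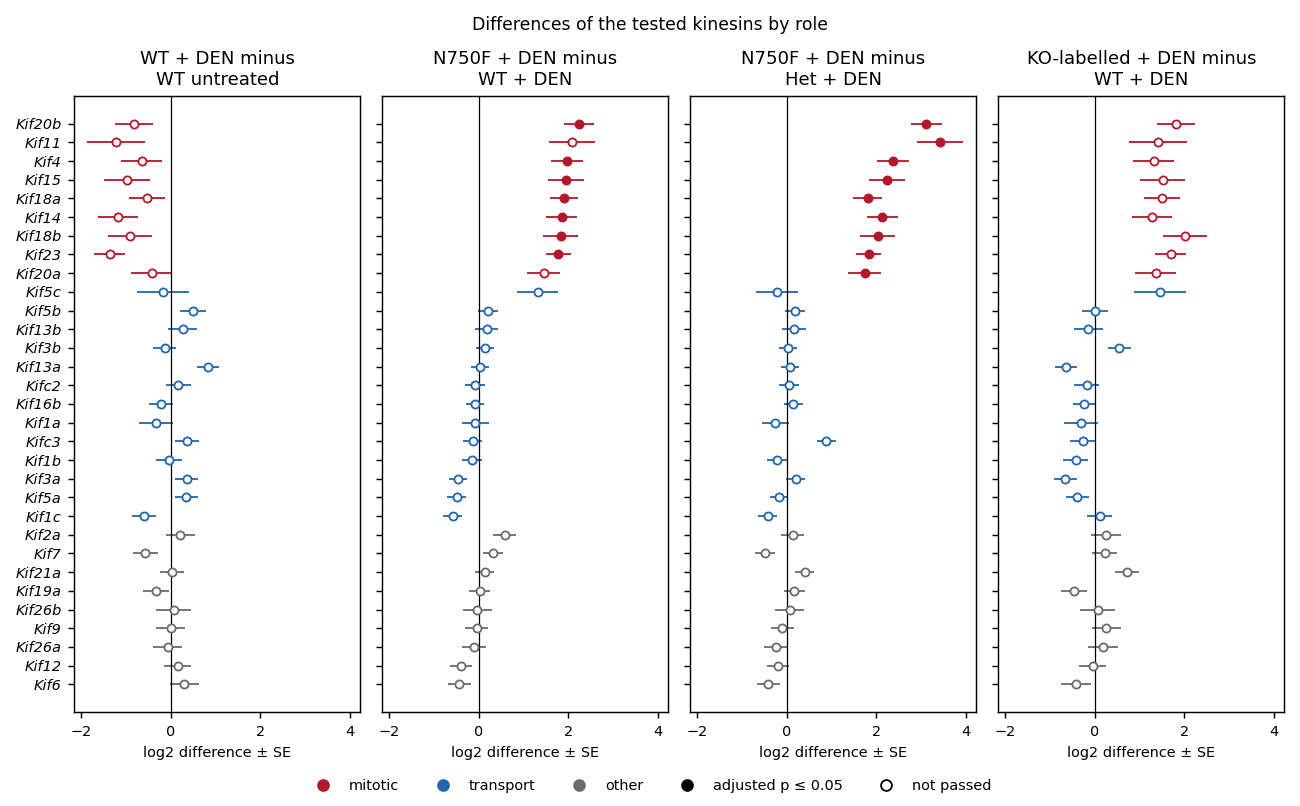
Log2 difference ± SE of each of the 31 tested kinesins in 4 comparisons, coloured by role; filled points passed the limma test at an adjusted p of 0.05 or less. In the N750F comparisons 7 and 9 of the 9 mitotic kinesins are filled, at 1.45 to 2.24 and 1.74 to 3.43 for the list, while transport and other kinesins scatter around 0 and none is filled.

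Spindle motors come first. Kif11 (Eg5) is the tetrameric motor that slides antiparallel microtubules apart and sets up the bipolar spindle. Its level was 7.92 and 8.32 in untreated wild-type livers, 6.41 and 7.29 in wild-type livers with DEN, 6.40 and 4.62 in heterozygous livers, 8.73, 8.93, 9.01, 9.13 and 8.97 in N750F livers, and 9.43 and 7.21 in the knockout-labelled livers. The N750F arrays lay closely together above every untreated, wild-type DEN and heterozygous array, while the low groups scattered by about a log2 unit or more between their arrays. Kif11 was 3.43 ± 0.51 (SE) higher in N750F than in heterozygous livers, 10.8-fold and the largest kinesin difference in that comparison (adjusted p = 0.00357). Against wild-type livers it was 2.09 ± 0.51 (SE) higher and missed the threshold (adjusted p = 0.0642). Kif15, which backs up Kif11 in holding the spindle bipolar, read 6.99 and 6.70 untreated, 5.85 and 6.18 in wild type with DEN, 5.70 and 5.75 in heterozygous livers, 7.41, 7.94, 8.00, 7.76 and 8.55 in N750F, and 8.39 and 6.39 in the knockout-labelled pair. No N750F array overlapped the wild-type or heterozygous arrays. Kif15 rose by 1.94 ± 0.40 (SE, adjusted p = 0.0325) over wild type and by 2.24 ± 0.40 (SE, adjusted p = 0.0114) over heterozygous livers.

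Next come motors that act on chromosomes and microtubule ends. Kif4 is a chromokinesin that helps condense chromosomes and carries the bundling protein Prc1 to the midzone. It read 7.81 and 7.16 untreated, 7.06 and 6.76 in wild type with DEN, 6.46 and 6.56 in heterozygous livers, 8.69, 8.78, 8.73, 8.89 and 9.26 in N750F, and 9.01 and 7.30 in the knockout-labelled pair. All N750F arrays were above all arrays of the untreated, wild-type DEN and heterozygous groups. The difference was 1.97 ± 0.36 (SE, adjusted p = 0.0145) from wild type and 2.37 ± 0.36 (SE, adjusted p = 0.00357) from heterozygous livers. Kif18a, which damps the ends of kinetochore microtubules so that chromosomes align, read 6.51 and 6.38 untreated, 6.38 and 5.02 in wild type with DEN, 6.01 and 5.58 in heterozygous livers, 8.09, 7.39, 7.53, 7.36 and 7.85 in N750F, and 7.87 and 6.98 in the knockout-labelled pair. It was lowest in 1 wild-type DEN array and high in all N750F arrays. It rose by 1.90 ± 0.32 (SE, adjusted p = 0.0104) and 1.81 ± 0.32 (SE, adjusted p = 0.0095).

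Kif18b trims astral microtubules. It read 6.80 and 4.75 in the untreated pair, so that group alone covered most of its range. Elsewhere it was 4.93 and 4.75 in wild type with DEN, 4.47 and 4.81 in heterozygous livers, 7.01, 6.63, 6.59, 6.82 and 6.34 in N750F and 6.85 and 6.91 in the knockout-labelled pair. It was the 1 mitotic kinesin that read alike in both knockout-labelled arrays. Kif18b rose by 1.83 ± 0.39 (SE, adjusted p = 0.0365) over wild type and by 2.03 ± 0.39 (SE, adjusted p = 0.0165) over heterozygous livers, and its adjusted p with no filter was 0.0372 and 0.0161.

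The remaining chromosome motors were dim. Kif2c, a depolymerase that corrects faulty kinetochore attachments, read 5.40 and 5.46 in wild type with DEN, 5.32 and 4.58 in heterozygous livers and 6.12, 6.24, 5.83, 6.17 and 6.69 in N750F. Its N750F arrays were the higher in both comparisons, but in the fit with no filter the difference was 0.79 ± 0.26 (SE, adjusted p = 0.213) from wild type and 1.27 ± 0.26 (SE, adjusted p = 0.0285) from heterozygous livers. Kif22, a chromokinesin that pushes chromosome arms outward, read 5.44, 6.01 and 5.75 in the run 1 N750F arrays and 6.86 and 6.82 in the run 2 ones, so its N750F values split by run. Its difference from wild type was 0.97 ± 0.31 (SE, adjusted p = 0.187).

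The cytokinesis motors included the most firmly called member. Kif20b, needed for the final cut between daughter cells, read 7.84 and 7.72 untreated, 7.20 and 6.64 in wild type with DEN, 6.21 and 5.87 in heterozygous livers, 9.19, 9.06, 9.00, 9.19 and 9.40 in N750F, and 9.61 and 7.95 in the knockout-labelled pair. Every group other than the knockout-labelled one was separate from the next. Kif20b rose by 2.24 ± 0.34 (SE), or 4.72-fold, over wild type (adjusted p = 0.00809) and by 3.12 ± 0.34 (SE), or 8.68-fold, over heterozygous livers (adjusted p = 0.000546), the smallest adjusted p of any kinesin in either comparison. Kif23 is the motor of centralspindlin, the midzone complex it forms with Racgap1. It read 7.33 and 7.40 untreated, 5.85 and 6.34 in wild type with DEN, 6.16 and 5.91 in heterozygous livers, 7.62, 7.89, 7.76, 8.04 and 7.96 in N750F, and 8.32 and 7.08 in the knockout-labelled pair. Wild-type DEN and heterozygous arrays overlapped at the bottom, and N750F lay above the rest outside the knockout-labelled pair. Kif23 rose by 1.78 ± 0.28 (SE, adjusted p = 0.00904) and 1.83 ± 0.28 (SE, adjusted p = 0.00386).

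Kif14 brings citron kinase to the midbody. It read 6.37 and 6.30 untreated, 5.08 and 5.43 in wild type with DEN, 4.86 and 5.07 in heterozygous livers, 6.99, 7.10, 7.05, 7.05 and 7.26 in N750F, and 7.38 and 5.50 in the knockout-labelled pair. The groups other than the last did not overlap, although the top heterozygous and bottom wild-type DEN arrays nearly met. The difference of N750F was 1.85 ± 0.35 (SE, adjusted p = 0.0195) from wild type and 2.14 ± 0.35 (SE, adjusted p = 0.00611) from heterozygous livers. A second, dimmer Kif14 probe set (mean 5.57) differed by 0.25 and -0.15 in these comparisons, so the probe sets of Kif14 disagree. Kif20a, which moves the chromosomal passenger complex to the midzone, read 6.32 and 6.22 untreated, 5.89 and 6.33 in wild type with DEN, 5.42 and 6.21 in heterozygous livers, 6.77, 7.83, 7.41, 7.59 and 7.94 in N750F, and 8.03 and 6.41 in the knockout-labelled pair. Its N750F arrays were all higher but spread by over a log2 unit, and it passed against heterozygous livers (1.74 ± 0.36, SE, adjusted p = 0.0265) and not against wild type (1.45 ± 0.36, SE, adjusted p = 0.0711).

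**Figure D3:**
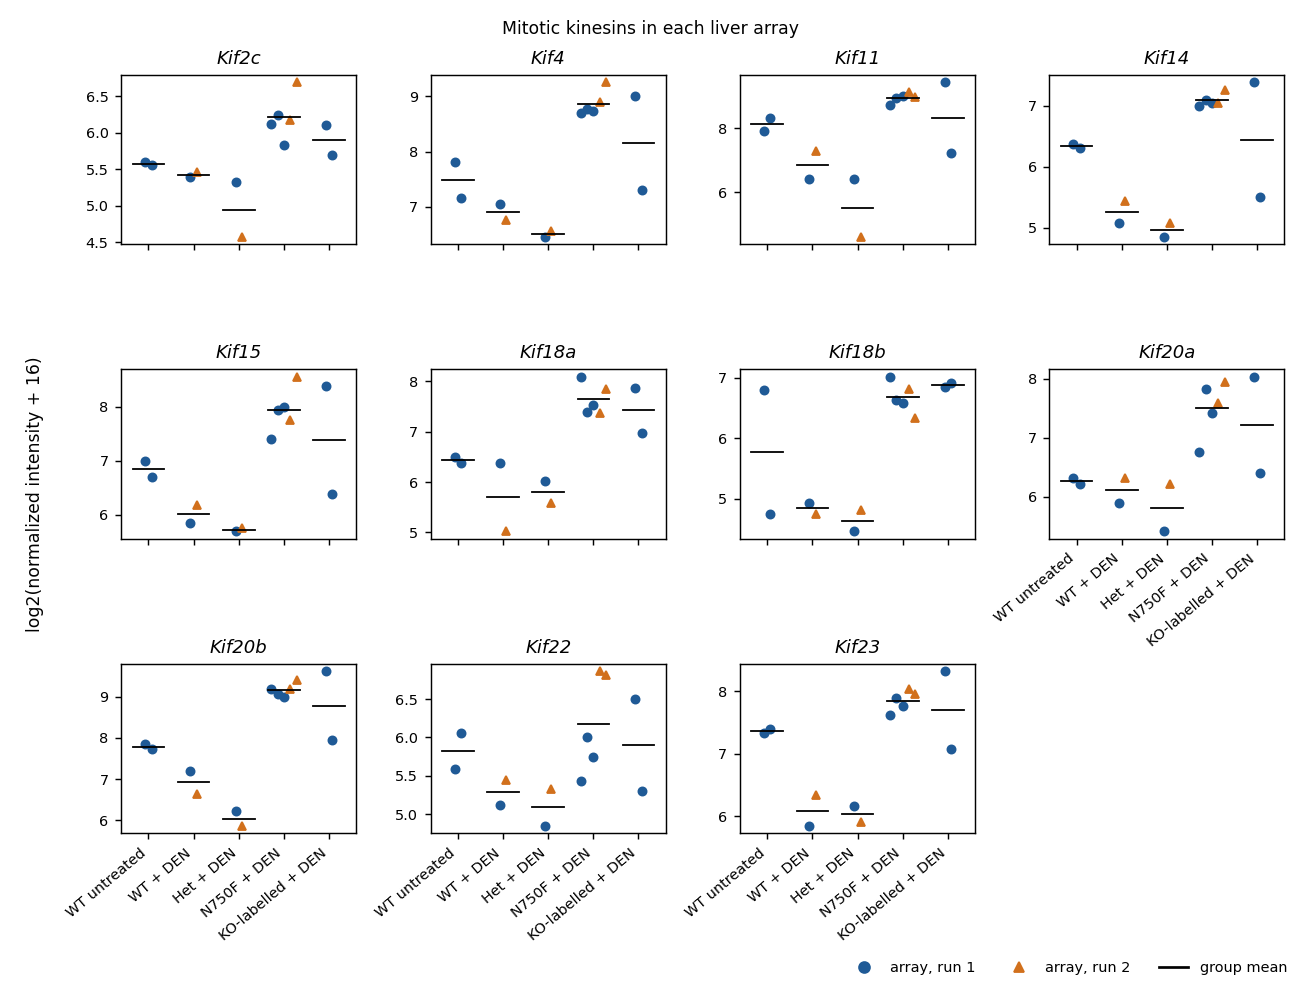
Level of each of the 11 mitotic kinesins in each array, as log2(normalized intensity + 16), by group; circles are run 1, triangles run 2 and lines group means, and each gene has its own vertical scale. N750F points lie above both wild-type DEN points for every gene except Kif22, and the knockout-labelled points lie closest together for Kif18b.

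These counts rested on few control arrays. Leaving out wild-type DEN array 4 left 0 of the mitotic kinesins called in N750F against wild type, and 0% of all genes tested. Leaving out wild-type DEN array 3 left 3 mitotic calls (3.3% of all genes), and leaving out N750F array 5 left 4 (0.689%). Without heterozygous array 3 the count against heterozygous livers was 3 (1% of all genes), and without heterozygous array 4 it was 1 (0.12%). The median mitotic difference stayed between 1.81 and 1.95 against wild type and between 2.10 and 2.28 against heterozygous livers over all single-array omissions. Within run 1 alone the medians were 1.88 and 2.18, and within run 2 they were 1.83 and 2.08, with 9 of 9 mitotic differences positive each time. The macrophage marker mean was also higher in N750F livers than in either DEN-treated control group. It was 6.83 and 7.00 in DEN-treated wild-type livers, 7.12 and 7.22 in heterozygous livers and 7.63 to 8.41 in N750F livers. Knockout-labelled arrays read 7.54 and 7.90, and untreated arrays 8.42 and 7.93. All 6 markers were above the filter, with 1 of 6 called higher in N750F against wild type and 0 of 6 against heterozygous livers. The mean of 5 erythroid markers was 7.06 to 7.20 in wild-type DEN arrays and 7.44 to 7.69 in N750F arrays, with 0 of 5 called. For 4 leukocyte markers the mean was 7.151 to 7.279 in heterozygous arrays and 7.283 to 7.712 in N750F arrays, with 0 of 4 called. Sex also differed, both wild-type DEN livers being female and both heterozygous livers male. The part of these cell types in the kinesin differences was not tested. With Y-linked level as a covariate 7 of 9 mitotic kinesins were called against wild type (1.02% of all genes tested) and 2 of 9 against heterozygous livers (0.361%).

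Genes of proteins that work with the mitotic kinesins were read from a list of partners. Of 16 partners matched on the arrays, 14 passed the filter on dim genes (5.94). Their mean was 7.97 in N750F, 6.16 in wild type with DEN and 5.73 in heterozygous livers. Some may thus have passed only through the groups where they were high. Partner calls with no filter were not read here. Of 14 tested partners (spindle factors, midzone proteins and mitotic kinases) 10 rose in N750F against wild type under DEN, where 1.13% of all genes tested rose, with a median of 1.82. Against heterozygous livers 11 rose, where 1.3% of all genes did, with a median of 2.35. Nusap1, a microtubule bundler of the spindle, differed by 2.41 ± 0.34 (SE, adjusted p = 0.00525) from wild type and 3.18 ± 0.34 (SE, adjusted p = 0.000546) from heterozygous livers. Against wild type, Aurka, a kinase of spindle pole assembly, rose by 1.72 ± 0.27 (SE, adjusted p = 0.00904), Plk1, a kinase of mitotic entry and exit, by 1.92 ± 0.33 (SE, adjusted p = 0.0114), and Cenpe, itself a kinetochore kinesin although its symbol does not say so, by 2.35 ± 0.41 (SE, adjusted p = 0.0126). Of 15 tested transport partners (kinesin light chains, cargo adaptors, dynein and dynactin subunits) none passed in either comparison, with medians of -0.10 and 0.14.

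Transport kinesins passed in neither of these comparisons. In N750F against wild type under DEN their differences ran from -0.58 to 1.32, with 4 of 13 at an unadjusted p of 0.05 or less, and against heterozygous livers from -0.42 to 0.89, with 1 of 13; 14.7% and 11.2% of all genes tested were at that level. Kif5c, a conventional kinesin heavy chain known from neurons, was the largest at 1.32 ± 0.46 (SE, adjusted p = 0.211) over wild type. With a mean of 5.96 Kif5c barely passed the filter (5.94). Its group means lay above the filter only in heterozygous, N750F and knockout-labelled livers. It read 5.32 and 4.88 untreated, 5.10 and 4.90 in wild type with DEN, 5.96 and 7.09 in heterozygous livers, 6.92, 5.28, 6.83, 5.74 and 6.74 in N750F and 5.79 and 6.97 in the knockout-labelled pair. The 4 wild-type arrays and 1 N750F array were low, and the arrays of each mutant group lay a log2 unit or more apart. Kifc3, a minus-end motor linked to epithelial junctions, read 6.81 and 6.31 in heterozygous livers and 7.12 to 7.76 in the other 11 arrays. The 2 heterozygous arrays were its lowest, and N750F was 0.89 ± 0.22 (SE, adjusted p = 0.0644) higher than they were.

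The heavy chain Kif5b, which is expressed in most tissues, differed by 0.21 ± 0.23 (SE; 95% interval -0.28 to 0.70) between N750F and wild type under DEN. Kif3a and Kif3b, which together form the kinesin-2 motor that builds cilia, differed by -0.46 ± 0.20 (SE; 95% interval -0.90 to -0.03) and 0.15 ± 0.20 (SE; 95% interval -0.28 to 0.58), and neither passed after adjustment. Kif1b, which carries mitochondria and synaptic vesicle precursors, differed by -0.15 ± 0.23 (SE; 95% interval -0.64 to 0.33). The intervals of Kif5b, Kif3a, Kif3b and Kif1b do not reach the smallest mitotic difference of that comparison, 1.45, but hold smaller ones. They do not bound the whole transport list, whose largest difference, that of Kif5c, was 1.32.

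In wild-type livers, DEN against no treatment gave no called kinesin, where 0.689% of the genes tested were called. The differences of the 9 mitotic kinesins were all negative, with a median of -0.91 (all genes tested -0.02), and both DEN arrays lay below both untreated arrays for 9 of all 11 mitotic kinesins, against 22.1% of all genes. Kif23 had the largest difference, -1.36 ± 0.35 (SE, adjusted p = 0.102), then Kif11 at -1.21 ± 0.65 (SE, adjusted p = 0.441) and Kif14 at -1.18 ± 0.44 (SE, adjusted p = 0.247). At an unadjusted p of 0.05 or less there were 2 mitotic, 2 transport and 0 other kinesins, and 13.7% of all genes tested. Refitted without the 2 knockout-labelled arrays, whose spread entered the shared variance, Kif14 (adjusted p = 0.0268) and Kif23 (adjusted p = 0.0228) were called lower, among 1.52% of all genes called. The mitotic partners had a median of -1.06, with Plk1 called at -2.14 ± 0.41 (SE, adjusted p = 0.0364). Of the macrophage markers 3 of 6 were called lower, and all 6 had both DEN arrays below both untreated arrays (median -1.35). The erythroid mean was 7.06 to 7.20 after DEN and 7.76 to 7.84 without it. The endothelial mean was 7.97 to 8.37 after DEN and 8.72 to 8.78 without it. For 2 cholangiocyte markers it was 5.67 to 6.38 and 6.54 to 6.86. The neuron mean went the other way, with 6.61 to 6.83 after DEN and 6.31 to 6.45 without it. No erythroid, endothelial, cholangiocyte or neuron marker was called. The part of these cell types in the kinesin values was not tested. The transport median was 0.17, and Kif13a, which carries cargo to endosomes and the cell surface, was 0.83 ± 0.25 (SE, adjusted p = 0.145).

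Heterozygous livers were compared with untreated wild-type livers in the same way. No kinesin was called, where 1.4% of the genes tested were. Mitotic kinesins had a median of -1.27, and both heterozygous arrays were below both untreated arrays for 10 of the 11, against 25.4% of all genes. Kif11 differed by -2.55 ± 0.65 (SE, adjusted p = 0.0681) and Kif20b by -1.70 ± 0.43 (SE, adjusted p = 0.0673). Without the knockout-labelled arrays, when 2.74% of all genes were called, 4 were called lower: Kif11 (adjusted p = 0.0193), Kif14 (adjusted p = 0.00676), Kif20b (adjusted p = 0.00754) and Kif23 (adjusted p = 0.0133). The macrophage markers had 1 of 6 called lower and all 6 differences negative (median -1.15), and 1 of 5 endothelial and 1 of 5 erythroid markers were called lower, each list with 3 of 5 markers below both untreated arrays; their part in the kinesin values was not tested. Among the partners Plk1, Nusap1 and Birc5 (survivin, a chromosomal passenger) were lower, by -2.79 ± 0.41 (SE, adjusted p = 0.0059), -2.47 ± 0.43 (SE, adjusted p = 0.0153) and -3.81 ± 0.77 (SE, adjusted p = 0.0319).

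Between heterozygous and wild-type livers under DEN no kinesin passed, and 0.00669% of the genes tested did. Both heterozygous livers were male and both wild-type DEN livers female, so sex and genotype cannot be told apart here. The macrophage marker mean was 7.12 to 7.22 in heterozygous and 6.83 to 7.00 in wild-type DEN arrays, with 0 of 6 called. The part of these cells in the kinesin values was not tested. The mitotic median was -0.29. The intervals were wide: Kif23 differed by -0.06 (95% interval -0.78 to 0.66) and Kif18a by 0.09 (95% interval -0.72 to 0.91), while Kif11 differed by -1.34 (95% interval -2.66 to -0.03) and Kif20b by -0.88 (95% interval -1.75 to -0.01). At an unadjusted p of 0.05 or less there were 2 mitotic, 3 transport and 1 other kinesins, and 6.88% of all genes tested.

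The last comparison of N750F livers was with untreated wild-type livers, in which genotype and treatment cannot be told apart. Of the genes tested 3.87% rose, 2.34% fell and 6.21% were called in all. Among the 9 tested mitotic kinesins, and among all 11 with no filter (3.5% of all genes called), 2 rose: Kif20b by 1.42 ± 0.36 (SE, adjusted p = 0.0350) and Kif18a by 1.38 ± 0.33 (SE, adjusted p = 0.0307). Kif4 missed at 1.32 ± 0.37 (SE, adjusted p = 0.0506). The mitotic median was 0.97, and all 5 N750F arrays were above both untreated arrays for 9 of the 11, against 9.12% of all genes. The erythroid marker mean was 7.44 to 7.69 in N750F and 7.76 to 7.84 in untreated arrays. The neuron mean was 6.56 to 7.07 and 6.31 to 6.45, with 0 markers called in either list. Of 4 leukocyte markers 1 was called higher in N750F, and the other marker means overlapped. The part of these cell types in the kinesin values was not tested. Without the knockout-labelled arrays 6 mitotic kinesins were called higher, and 9.06% of all genes in either direction. Kif18b was below the filter in that fit and was not tested. No mitotic kinesin was called without untreated array 1 (0.0803% of all genes), without untreated array 2 (1.71%), without N750F array 1 (4.61%) or without N750F array 3 (1.08%).

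In that comparison alone transport kinesins were called, 2 of 13 in opposite directions. Kif1c, a vesicle motor that also serves Golgi traffic, read 10.42 and 9.98 in untreated wild-type livers and 9.11, 9.05, 9.18, 9.56 and 9.86 in N750F. Every N750F array was below both untreated arrays, and Kif1c fell by 1.17 ± 0.23 (SE, adjusted p = 0.0164); its other probe set gave like differences in the comparisons with wild-type and heterozygous livers (-0.62 and -0.44, against -0.58 and -0.42). Kif13a read 6.33 and 6.28 untreated and 7.11, 7.20, 7.17, 6.71 and 6.29 in N750F. The groups overlapped through the last N750F array, and the fit, which adjusts for run, gave a rise of 0.86 ± 0.20 (SE, adjusted p = 0.0295). Untreated arrays were all in run 1, and with no run term neither Kif1c nor Kif13a was called, and 0.548% of all genes were. Of the partners Aurkb, Ckap5 and Prc1 rose, as did Rhot1, a mitochondrial adaptor of kinesin, by 0.85 ± 0.22 (SE, adjusted p = 0.0378).

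**Figure D4:**
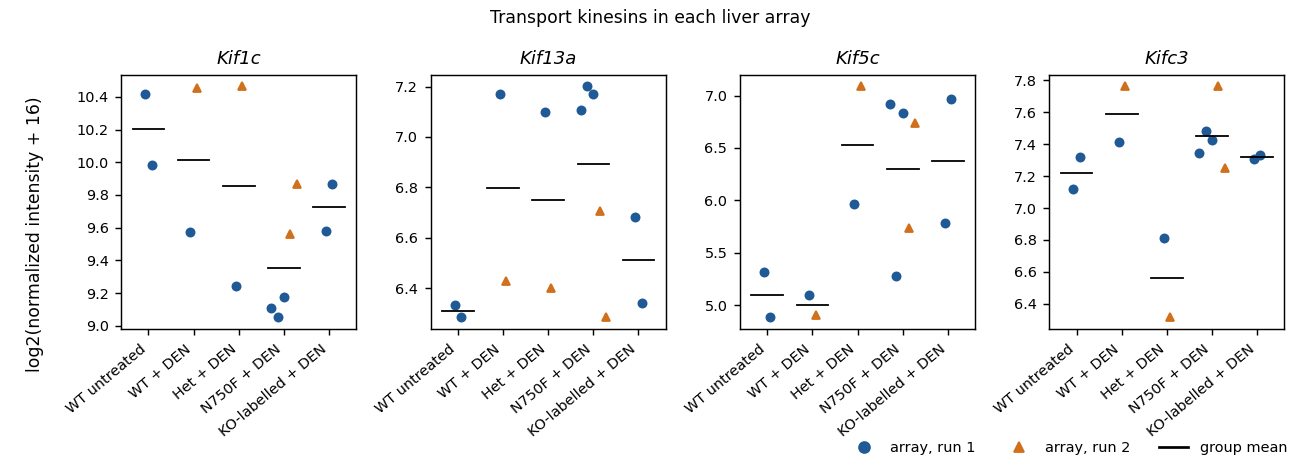
Level of 4 transport kinesins in each array, as log2(normalized intensity + 16), by group; circles are run 1, triangles run 2 and lines group means, and each gene has its own vertical scale. Kif1c in N750F (9.05 to 9.86) lies below untreated wild type (9.98 and 10.42), Kif13a overlaps between those groups, Kif5c varies within every mutant group, and the heterozygous arrays are the lowest for Kifc3.

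The knockout-labelled livers gave high mitotic levels with a wide spread. Both were male, as were both heterozygous livers, while both DEN-treated wild-type livers were female, so sex differed along with genotype against wild type. Against wild-type livers under DEN no kinesin passed, where 0.0468% of the genes tested did, although all 9 mitotic differences were positive with a median of 1.50, all 9 were at an unadjusted p of 0.05 or less (8.55% of all genes tested), and both arrays lay above both wild-type arrays for 9 of all 11 (16% of all genes). Kif23 had the smallest adjusted p, at 1.70 ± 0.35 (SE, adjusted p = 0.13), and Kif18b the largest difference, at 2.01 ± 0.49 (SE, adjusted p = 0.213). Against heterozygous livers 1 of 9 rose, where 0.221% of the genes tested rose and 0.301% were called, and 1 of all 11 rose with no filter, where 0.16% were called. It was Kif20b, by 2.69 ± 0.43 (SE, adjusted p = 0.0222), and the median of the 9 was 1.75. Among the partners Nusap1, Plk1, Prc1 and Aurkb rose in that comparison, by 3.07 ± 0.43 (SE, adjusted p = 0.0113), 2.71 ± 0.41 (SE, adjusted p = 0.0184), 2.55 ± 0.47 (SE, adjusted p = 0.0419) and 1.71 ± 0.33 (SE, adjusted p = 0.0472). Against untreated wild type none passed (0.0869% of the genes tested), with a mitotic median of 0.67. Both knockout-labelled arrays lay above both wild-type DEN and both heterozygous arrays in the macrophage, endothelial and erythroid means. None of these markers was called. Group means were 8.47, 8.17 and 7.97 for endothelial and 7.72, 7.13 and 7.29 for erythroid markers, in that order. The neuron mean was lower than in wild type with DEN (6.58 against 6.72). The part of these cell types in the kinesin values was not tested.

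The arrays of the knockout-labelled pair were also set against each other. From array 1 to array 2 the 9 tested mitotic kinesins had a median difference of -1.66, and 8 of the 9 were lower, whereas the medians were 0.03 for transport kinesins, -0.01 for other kinesins and 0.02 for all genes tested. Single genes differed by more, the range over all genes tested being -3.54 to 8.24. Kif11 was lower by the most, 9.43 against 7.21, and Kif18b read 6.85 and 6.91. The mitotic partners had a median of -1.49 and were lower in 13 of 14. Array 2 is the one with muscle transcripts (muscle marker mean 7.96 against 6.61 in array 1), and the part of that tissue in its kinesin values was not tested. Leaving out array 2 gave 6 mitotic kinesins called higher against wild type (0.615% of all genes called) and 7 against heterozygous livers (0.903%), and leaving out array 1 gave 0 against wild type (0.321%). Between N750F and knockout-labelled livers no kinesin and 0% of the genes tested passed; 0 mitotic, 2 transport and 1 other kinesins were at an unadjusted p of 0.05 or less, and 12.2% of all genes tested. The mitotic median was 0.42, and it was -0.42 without knockout-labelled array 2 and 1.34 without array 1, when 4 mitotic kinesins were called higher in N750F (3.42% of all genes called). Kif23 differed by 0.08 (95% interval -0.55 to 0.71) and Kif11 by 0.68 (95% interval -0.48 to 1.83).

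**Figure D5:**
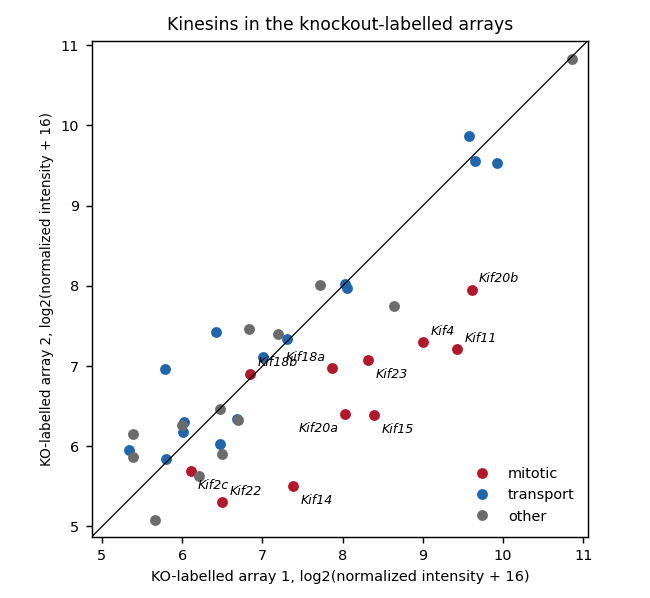
Level of each of the 39 kinesins in the knockout-labelled arrays 1 (horizontal) and 2 (vertical), as log2(normalized intensity + 16), coloured by role, with the line of equal levels. The 9 tested mitotic kinesins have a median of -1.66 for array 2 minus array 1, with Kif18b at the line, and transport and other kinesins scatter around it.

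The kinesins with other roles were called in no comparison among the 9 tested. In the fit with no filter Kif24 rose in N750F against heterozygous livers by 1.09 ± 0.25 (SE, adjusted p = 0.0431). Kif24 read 5.78 and 5.67 untreated, 5.27 and 4.55 in wild type with DEN, 4.67 and 4.74 in heterozygous livers, 5.94, 5.88, 5.73, 5.50 and 6.05 in N750F, and 6.21 and 5.62 in the knockout-labelled pair. This dim kinesin was lowest in the DEN-treated wild-type and heterozygous arrays. The depolymerase Kif2a, a relative of Kif2c that is also used outside mitosis, differed by 0.58 ± 0.26 (SE, adjusted p = 0.327) between N750F and wild type under DEN and by 0.80 ± 0.28 (SE, adjusted p = 0.102) from untreated livers. The dim Kif2b did not follow the mitotic list. It read 6.03 and 6.17 in wild type with DEN, 5.90 and 7.90 in heterozygous livers, and 6.04, 5.56, 5.34, 6.45 and 5.78 in N750F. Its N750F and heterozygous arrays overlapped. Kif7, the ciliary regulator of hedgehog signalling, was 0.31 higher than in wild-type and -0.48 relative to heterozygous livers, and its second probe set gave 0.47 and 0.36, opposite in sign for the latter.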

How the data were processed

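RNA from frozen liver was amplified, labelled and hybridised to 13 Affymetrix arrays, per the labels' protocols; the submitters' processing notes name RMA and Affymetrix Expression Console 1.1. The deposited values are intensities on a linear scale for 35556 probe sets, with array medians of 48.2 to 83.0, per the values in the file; their number of arrays limits the precision. They were quantile-normalized between arrays and turned into log2(intensity + 16), since the deposited medians differed between runs. Of the listed probe sets 21789 had a single gene symbol, 1621 had several and were left out, and 12146 probe sets were unnamed here; symbols were updated by Entrez identifier through the GRCm38.p6 gene table, used for names only. Per gene the probe set of highest mean was kept. Genes below the 25th percentile of mean level (log2 5.94) were left out, leaving 14953.

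One limma 3.58.1 model (R 4.3.3) held the 5 groups and the array run, with 7 residual degrees of freedom; Benjamini-Hochberg adjustment ran over all genes tested within each of 10 comparisons, and a gene was called at an adjusted p of 0.05 or less. All kinesins could be named, with values per array for those called. Of the partner lists up to 4 called members of smallest p were named. The members, roles and lists were chosen with earlier results of these data known. Alternatives changed the offset, normalization, filter, run term, probe-set rule and arrays used. Data were simulated a single time per comparison, with 100 genes changed by each size, so the rates are rough. The N750F against wild-type comparison recovered 82% of genes changed by 2 and 32% of those changed by 1 on the log2 scale, over 14953 genes. N750F against heterozygous livers, with the same numbers of arrays, recovered 70% and 40%. DEN against no treatment in wild type recovered 63% and 16%, so changes of about 1 were mostly missed there.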

Additional observations from a re-analysis of the deposited data

How the results depend on the processing

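No kinesin called in the main analysis changed direction under any alternative that tested it. The filter on dim genes was applied anew in each alternative that used it, so a kinesin near the filter was not tested in some. Kif18b, for example, was below it without both knockout arrays. Leaving out 1 array at a time, the count of mitotic kinesins called ranged from 0 to 8 for N750F against wild type under DEN, from 1 to 9 against heterozygous livers, from 0 to 6 against untreated livers and from 0 to 4 against knockout-labelled livers. It ranged from 0 to 6 for knockout-labelled against wild-type, from 0 to 7 against heterozygous and from 0 to 1 against untreated livers, and from 0 to 2 for DEN in wild type and 0 to 4 for heterozygous against untreated livers. The transport count ranged from 0 to 2 for N750F against untreated livers and was 0 elsewhere. Where 1 array remained in a group, it was assumed to vary like the others.

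With run 1 arrays only, which left fewer arrays, 0 mitotic kinesins were called in N750F against wild-type (0% of all genes tested), heterozygous (0.00669%) or untreated (1.72%) livers or in knockout-labelled against heterozygous livers (0%). In N750F against untreated livers 1 transport kinesin was. With the replicate number as a block, 1 mitotic kinesin was called for N750F against wild type (0.241% of all genes), 7 against heterozygous livers (0.762%), and 0 for N750F against untreated (0.107%) and knockout-labelled against heterozygous livers (0%), with 0 transport kinesins. Of 12 same-numbered pairs 7 had correlated deviations over 0.1 (range -0.13 to 0.45). In groups of 2 arrays the deviations mirror each other, so these pairs are not separate observations. The 6 pairs numbered 3 or 4, which lie in run 1 and run 2, had 0.27 to 0.45. These values do not settle whether the numbers pair the animals, and the main fit did not pair them. N750F against untreated livers gave 0 mitotic kinesins with an offset of 1 (3.64% of all genes), with no quantile normalization (2.94%) or with no run term (0.548%), 1 with Y-linked level as a covariate (4.18%) and 6 without both knockout arrays (9.06%); its transport count was 1 with no quantile normalization and 0 with no run term. Y-linked level gave 2 mitotic kinesins both for N750F (0.361%) and for knockout-labelled (0.127%) against heterozygous livers, the latter 0 with no quantile normalization (0.0936%). Without both knockout arrays DEN in wild type gave 2 (1.52%) and heterozygous against untreated livers 4 (2.74%). The cause of these shifts was not tested. Of the called kinesins' differences that were tested under these alternatives, 149 kept their call and 54 lost it. Those of kinesins below the filter of an alternative are not in these counts. The median of all genes moved by under 0.1 with no quantile normalization.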
